A study of Mus musculus with 2 samples.

Results

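Peaks in coding exons were examined in a map of open chromatin of the mouse neural tube, the embryonic precursor of brain and spinal cord. A peak counted as a coding exon peak when its centre lay in the coding sequence (CDS) of a protein-coding gene on chromosomes 1 to 19 and over 1 kb from every transcription start site (TSS) of a protein-coding gene. By this rule, which uses position only and not the signal, 3815 of 194486 peaks in replicate 1 and 3959 of 150286 peaks in replicate 2 were members, or 1.96% and 2.63% of the peaks. The mean was 3887 ± 102 peaks and 2.30% ± 0.476 (SD, n = 2), with exact binomial 95% intervals of 1.90% to 2.02% and 2.55% to 2.72% that cover counting error only. The map came from DNase-seq, in which the nuclease DNase I cuts accessible DNA and the cut ends are sequenced. The labels describe 1 group with 2 biological replicates that carry the same donor label, taken from healthy B6NCrl embryos at 11.5 days, male and female pooled, with no treatment or mutant allele named. Nothing further says that the replicates came from separate litters, so differences between them may be technical. With 1 group of 2 libraries no test across samples could be made, and each value is a description given for each library.

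Most coding sequence is wrapped in nucleosomes like the rest of the gene body, and accessible sites are best known from promoters, introns and intergenic enhancers. Some coding exons also carry enhancer activity, so that the same bases specify amino acids and bind transcription factors. An accessible exon can also be part of an unannotated promoter or of a CpG island, a stretch rich in CpG dinucleotides that is often unmethylated and open. DNase-seq shows accessibility and does not tell these apart.

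The sequences of 6 coding exon peaks show what the strongest members look like. These are the 3 best ranked in a last exon and the 3 best ranked in an inner exon among peaks found in both libraries, with 1 per gene, and none touches an untranslated region (UTR). Each is the replicate 1 window of 150 bp on the coding strand of its gene, in mm10 (GRCm38), read from the RefSeq copy of that assembly. Capitals mark coding sequence and lower case marks intron.
Cacna1a exon 47 of 47 at chr8:84639536-84639685 (+): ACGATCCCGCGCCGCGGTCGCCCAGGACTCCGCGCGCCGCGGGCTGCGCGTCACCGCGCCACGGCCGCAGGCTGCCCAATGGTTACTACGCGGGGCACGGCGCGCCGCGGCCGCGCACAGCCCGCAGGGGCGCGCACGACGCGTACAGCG
Zfp771 exon 3 of 3 at chr7:127254176-127254325 (+): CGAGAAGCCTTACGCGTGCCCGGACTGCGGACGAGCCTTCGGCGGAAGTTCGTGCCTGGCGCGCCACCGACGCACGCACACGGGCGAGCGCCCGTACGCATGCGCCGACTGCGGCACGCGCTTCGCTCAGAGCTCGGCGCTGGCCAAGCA
Fbxl22 exon 2 of 2 at chr9:66511756-66511905 (-): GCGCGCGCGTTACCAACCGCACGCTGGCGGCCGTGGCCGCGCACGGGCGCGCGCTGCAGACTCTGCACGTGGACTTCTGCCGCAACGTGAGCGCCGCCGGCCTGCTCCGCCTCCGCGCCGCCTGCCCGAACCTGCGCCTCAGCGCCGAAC
Atn1 exon 6 of 10 at chr6:124745596-124745745 (-): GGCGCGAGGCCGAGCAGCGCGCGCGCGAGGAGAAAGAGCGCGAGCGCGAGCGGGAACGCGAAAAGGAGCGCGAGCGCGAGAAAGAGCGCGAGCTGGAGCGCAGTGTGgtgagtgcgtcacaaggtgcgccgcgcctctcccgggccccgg
Angptl6 exon 2 of 6 at chr9:20878216-20878365 (-): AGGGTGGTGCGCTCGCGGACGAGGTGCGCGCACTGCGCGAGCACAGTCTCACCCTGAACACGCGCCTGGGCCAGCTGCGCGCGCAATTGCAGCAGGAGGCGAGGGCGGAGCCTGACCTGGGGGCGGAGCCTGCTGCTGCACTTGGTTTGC
Sptbn4 exon 33 of 36 at chr7:27361516-27361665 (-): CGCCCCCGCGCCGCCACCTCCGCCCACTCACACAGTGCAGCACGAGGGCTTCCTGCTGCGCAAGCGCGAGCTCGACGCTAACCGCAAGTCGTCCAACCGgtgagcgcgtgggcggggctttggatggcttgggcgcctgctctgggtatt
Cacna1a encodes the pore subunit of a neuronal calcium channel, Zfp771 a zinc finger protein, Fbxl22 an F-box protein, Atn1 the nuclear co-repressor atrophin 1, Angptl6 a secreted angiopoietin-like protein and Sptbn4 the beta-IV spectrin of axons. The Cacna1a window had 33 CpG dinucleotides and a GC content of 80.0%. The Sptbn4 window had 18 CpG dinucleotides and a GC content of 69.3%, the lowest of the 6. The Atn1 window had 107 bp in the exon and ran across its end into the intron.

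The authors gave each peak a whole-number score, and what this score measures was not given in the sources used here, so a peak is described by its percentile rank among peaks over 1 kb from a TSS, called distal, in its own library. The Cacna1a peak scored 141 in replicate 1 and 134 in replicate 2. The Atn1 peak scored 143 and 135, the Angptl6 peak 144 and 132, and the Zfp771 peak 143 and 128. The remaining 2 scored 138 and 129 at Fbxl22 and 141 and 123 at Sptbn4. All 6 ranked at 99.8 or above in both libraries, near the top of scores that reached 150 and 148. A start site of another kind of transcript can lie close to such a peak, since the Atn1 window was 46 bp from the nearest annotated start of any gene type and 4297 bp from the nearest protein-coding one. The Cacna1a window was 620 bp and 23241 bp away, and the Zfp771 window was 6458 bp from both.

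The list of the 10 best ranked peaks found in both libraries has 4 further members. Kank3, which encodes a protein of the cytoskeleton, had the best ranked one, in inner exon 3 of 11, with scores of 146 and 134, and part of that window is annotated as UTR in another transcript. Notch4, a Notch receptor of endothelial cells, had a peak in its last exon with scores of 136 and 133, also annotated as UTR in another transcript. Inpp5b, an inositol phosphatase gene, had one in inner exon 7 with scores of 137 and 119. Crlf2, a cytokine receptor gene, had one in inner exon 2 with scores of 137 and 117, at 1078 bp from a coding TSS and so just outside the promoter limit. Of these 10 peaks 6 were in inner exons and 4 in last exons. The nearest start of any gene type lay 216 bp from the Kank3 peak, 530 bp from that of Notch4 and 157 bp from Inpp5b's. For Crlf2 it lay at 1078 bp, and the hotspot of 4222 bp in replicate 1 reached a coding TSS. At Angptl6, Fbxl22 and Sptbn4 the nearest start was 1436, 2762 and 4172 bp away.

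Coding sequence held more distal peaks per base than introns. The density was 135 peaks per Mb in replicate 1 and 140 in replicate 2 over 28.3 Mb of distal coding sequence. Introns held 77.6 and 56.4 peaks per Mb, and intergenic sequence held 58.5 and 42.7. Other exons of coding genes, which are mostly UTRs, held 103 and 81.4. Exons of noncoding genes held 137 and 114, above coding sequence in replicate 1 and below it in replicate 2. The ratio of coding to intron density was 1.74 and 2.48 in these libraries, with a mean of 2.11 ± 0.523 (SD, n = 2). Coding density was nearly equal in both libraries while intron density was lower in replicate 2.

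The direction of this ratio turned with base composition. The median GC content of coding exon peaks was 58.7% and 59.3%, against 50% and 52.7% in intron peaks. When the intron density was taken at the same GC content, in bins of 5 percentage points, coding sequence would have held 5210 and 5044 peaks, and the ratio reversed to 0.732 and 0.785. With distance from a TSS also equal the ratio was 0.669 and 0.714, and with distance alone it was 1.53 and 2.13. These ratios were added after the data were seen. The sign also changed along the GC range. At 55 to 60% GC coding sequence held 154 and 173 peaks per Mb and introns held 272 and 285. At 70 to 75% GC the order was the opposite, with 1739 and 1824 peaks per Mb in coding sequence and 930 and 1065 in introns, from 307 and 322 coding exon peaks.

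**Figure D1:**
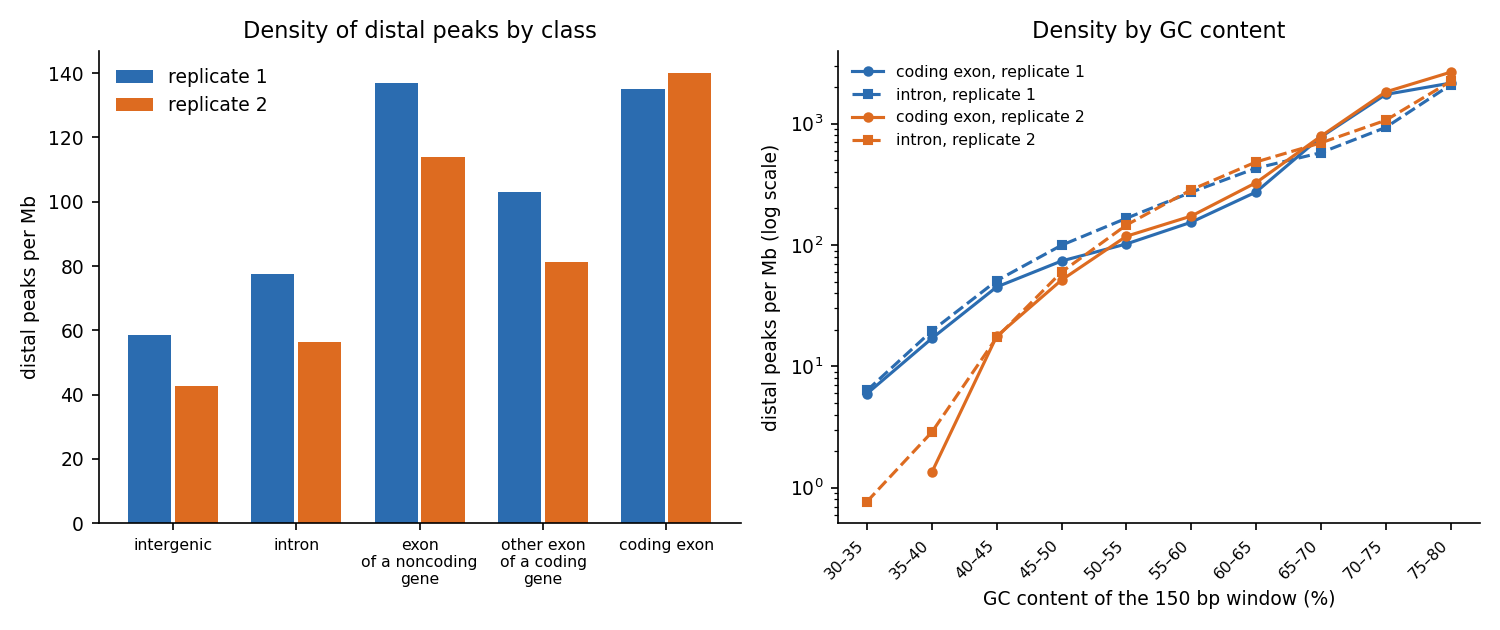
Left, bars give distal peaks per Mb of each class of sequence in replicate 1 (blue) and replicate 2 (orange). Right, peaks per Mb on a log axis by GC content of the 150 bp window in coding exons (circles, solid) and introns (squares, dashed); coding sequence is below introns at 50 to 65% GC and above them from 65% in both libraries, and a bin with no peak has no point.

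Coding exon peaks were often CpG-rich, meaning a GC content of at least 50% and a ratio of observed to expected CpG of at least 0.6. This held for 39.8% in replicate 1 and 40.7% in replicate 2, against 6.28% and 8.71% of all distal peaks. Among 154183 windows centred on coding intervals that hold no peak in either library, 7.41% were CpG-rich and the median GC content was 50%. The share of CpG-rich members rose with the rank of the peak, from 8.89% and 11.1% in the lowest decile to 73.9% and 76.7% in the highest. A start site of any gene type lay within 1 kb of 20.6% and 21% of coding exon peaks, compared with 6.40% and 7.04% of intron peaks. The share was 22.2% and 23.5% in other exons of coding genes and 53.9% and 57.6% in exons of noncoding genes. A hotspot is a broader region of raised signal called by the authors, and the hotspot around the peak reached a coding TSS for 13.7% and 6.44% of members.

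The rule's limit of 1 kb was not a natural break. Between 900 and 1000 bp from a TSS there were 143 and 125 peaks centred in coding sequence, and between 1000 and 1100 bp there were 124 and 126. Their median percentile ranks among all peaks were 66.9 and 68.8 just outside the rule, and 65.8 and 63.2 just inside it. Coding sequence within 1 kb of a TSS held a further 2850 and 2882 peaks, which are not members.

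Coding exon peaks ranked higher than intron peaks. The median percentile rank was 63.5 in replicate 1 and 56.7 in replicate 2 (mean 60.1 ± 4.85, SD, n = 2), against 51.0 and 49.1 for intron peaks and 47.4 and 49.1 for intergenic ones. Peaks in other kinds of exon ranked high as well, at 58.6 and 56.7 in other exons of coding genes and at 61.2 and 58.9 in exons of noncoding genes, the latter above coding exons in replicate 2. In tissue, a site open in few cells and one weakly open in many cannot be told apart. In scores these medians were 51 and 25 for coding exon peaks and 42 and 22 for intron peaks. The top decile held 679 coding exon peaks in replicate 1, or 17.8%, and 589 in replicate 2, or 14.9%, and it held 17.2% and 16.7% of the peaks in exons of noncoding genes. Within the same GC bin the median rank was lower than in introns, except at 30 to 35% GC in replicate 1, where 6 coding exon peaks had 24.8 and introns 22.3, and in that bin of replicate 2, which had no coding exon peak. At 55 to 60% GC the median rank was 57.3 and 42.9 in coding exons and 61.2 and 58.9 in introns, and at 70 to 75% it was 89.5 and 87.7 against 95.2 and 93.8.

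A coding exon peak of replicate 1 overlapped a peak of replicate 2 in 60.4% of cases (2305 of 3815, exact 95% interval 58.8% to 62.0%). In the other direction the share was 60.6% (2401 of 3959, 59.1% to 62.2%). All distal peaks gave 48.3% in replicate 1 and 66.5% in replicate 2, so coding exon peaks lay above the background in replicate 1 and below it in replicate 2. The overlap required 1 bp. Hotspots called in the opposite library overlapped 65.9% and 71.5% of coding exon peaks, against 50.8% and 75.1% of all distal peaks.

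Whether a member was found again went with its rank. Members found in both libraries had median ranks of 78.5 and 73.3, and those found in 1 library had 34.7 and 25.7. Recovery was 13.3% and 4.85% in the lowest decile and 92.3% and 92.9% in the highest. At the rates of intron peaks of the same rank decile, 57.3% and 68.9% of the members of replicates 1 and 2 would have been found. The sign of this difference was thus opposite in the 2 libraries. In the upper 2 deciles it was the same in both, because intron peaks of the top decile were found in 96.5% and 97.5% of cases and those of the ninth in 92.1% and 94.9%, against 85.3% and 86.1% of coding exon peaks in the ninth.

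**Figure D2:**
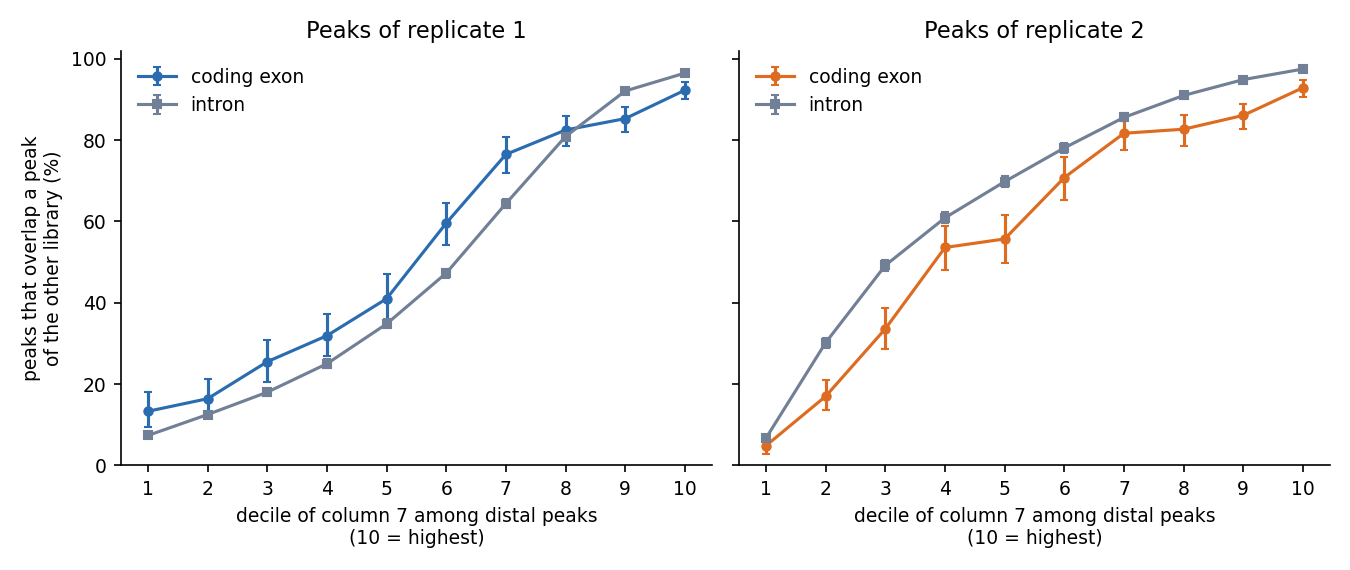
Percent of peaks that overlap a peak of the other library (y axis) by decile of the authors' score among distal peaks (x axis), for coding exon peaks (coloured circles) and intron peaks (grey squares); bars are exact binomial 95% intervals. The coding exon curve lies above the intron curve in deciles 1 to 8 of replicate 1 and below it in all 10 deciles of replicate 2.

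Members of the top decile that were not found as a peak in the other library mostly lay in a hotspot there. In replicate 1 there were 52 among 679, and in replicate 2 there were 42 among 589. Intron peaks of this decile were missed less often, since 96.5% and 97.5% were found, against 92.3% and 92.9% of members. A hotspot of the opposite library overlapped all but 1 of the 52 and all of the 42. Such overlap was general in this decile, at 99.7% and 100% of intron peaks. CpG-rich windows made up 84.6% and 95.2% of the members not found. The median width of their own hotspot was 2770 bp and 1466 bp, compared with 1645 bp and 1062 bp for all members of the top decile.

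Where coding exon peaks of both libraries overlapped, their ranks followed a similar order. There were 2079 such pairs, which involve 54.5% of the members in replicate 1 and, because some peaks of replicate 2 pair with more than 1 peak, 2041 members or 51.6% in replicate 2. The median distance between the paired centres was 20 bp, and 62.8% of pairs lay within 20 bp of each other. Because a pair was defined by the overlap of windows of 150 bp, its centres could not lie 150 bp or more apart. In the 10 best ranked pairs the starts differed by multiples of 20 bp, so 20 bp may be the smallest step. Pairs of intron peaks were not measured in this way. The percentile ranks of the pairs had a Spearman correlation of 0.921 across the 2079 pairs, which are peaks of the same 2 libraries and not independent replicates.

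Exons were classed as last, inner, first or only by 1 chosen transcript per gene. For 121 and 125 members outside its coding sequence another transcript was used, and the densities by exon position leave these members out. Inner exons held 2358 coding exon peaks in replicate 1 and 2439 in replicate 2, or 61.8% and 61.6%. Last exons held 1138 and 1188, a mean of 29.9% ± 0.126 (SD, n = 2), with 95% intervals of 28.4% to 31.3% and 28.6% to 31.5%. First exons held 156 and 161, and the only exon of a gene held 163 and 171. Last exons made up 19.3% of the distal coding bases and inner exons 78.6%.

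Per base, last exons held more peaks than inner exons. Their density was 207 and 215 peaks per Mb against 107 and 111, a ratio of 1.94 in both libraries. First exons held 568 and 580 per Mb and single exons 503 and 528, but both classes are small, with 0.255 Mb and 0.324 Mb, and their peaks lay at a median of 1.35 to 1.47 kb from a TSS. The ratio of last to inner exons was between 1.53 and 1.89 in 7 of the 8 combinations of exon length and library. In exons under 150 bp of replicate 2 it was 2.48, from 6 peaks in last exons. At the inner-exon density of the same distance and GC content, last exons would have held 789 and 847 peaks, which leaves a ratio of 1.37 and 1.34.

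Members in last exons also ranked higher. The median rank was 74.9 and 69.4 in last exons and 54.2 and 46.1 in inner exons. The share found in the other library was 64.1% and 64.3% against 57.0% and 57.7%. Last-exon peaks had a median GC content of 62.0% in both libraries and were CpG-rich in 54.7% and 52.9%, inner-exon peaks in 29.1% and 30.6%. A TSS of any gene type lay within 1 kb of 11.1% and 12.5% of last-exon peaks and of 24.8% and 24.6% of inner-exon peaks. The part of composition and of such start sites in these differences was not tested further.

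**Figure D3:**
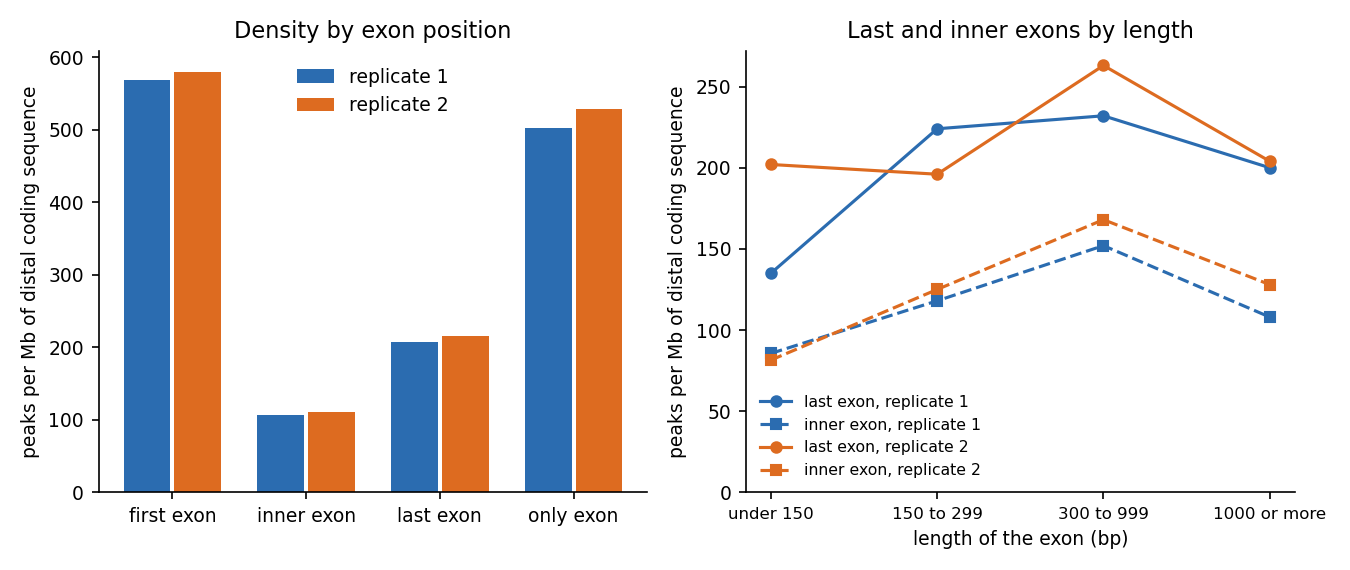
Left, bars give coding exon peaks per Mb of distal coding sequence by the position of the exon in its transcript, in replicate 1 (blue) and replicate 2 (orange). Right, the same density in last exons (circles, solid) and inner exons (squares, dashed) by exon length; last exons are above inner exons in each length class and library, and the shortest last exons hold 4 and 6 peaks.

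Many windows were wider than the exon that holds their centre. Of the members, 47.3% and 49.6% lay wholly in coding sequence, and 747 and 793 members touched an annotated UTR. Taken over peaks, the median length of the exon that holds the centre was 337 bp and 374 bp. In inner exons, 51.3% and 46.3% of the peak centres were under 50 bp from an exon end, where 60.5% of the bases lie, and the density there was the lowest of the 4 distance classes, at 90.6 and 84.8 peaks per Mb. The centres of 24 members in each library lay in coding sequence of more than 1 gene, and for these the gene named is 1 of several.

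Of 18750 genes with distal coding sequence, 2721 had a coding exon peak in replicate 1 and 2713 in replicate 2. In each of the libraries 1814 genes, or 9.67%, had at least 1, 387 genes had at least 2 and 113 had at least 3. A promoter peak, within 500 bp of a coding TSS, was present for 86.4% and 85.1% of the 1814 genes and for 72.0% and 71.2% of the 15130 genes with no coding exon peak. Genes with coding exon peaks had longer distal coding sequence, with a median of 1.64 kb against 1.00 kb. Among genes with 1 to 2 kb of it the promoter shares were 84.6% and 83.6%, against 78.1% and 77.2%.

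By the mean of both libraries the gene with the most coding exon peaks was Tchh, which encodes trichohyalin, a structural protein of the hair follicle made of repeated peptide units. It had 9 peaks in replicate 1 and 12 in replicate 2, with 9 pairs shared, and all were in its last exon. In replicate 1 alone Dst had more, with 10, and in replicate 2 alone Agrn, with 13. The scores of the Tchh peaks ran from 69 to 120 in replicate 1 and from 32 to 90 in replicate 2, and their median ranks were 92.3 and 90.7. Tchh had no promoter peak in either library, unlike the other 14 of the 15 genes with the most coding exon peaks.

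Dst, which encodes a large cytoskeletal linker, had 10 and 7 peaks over 27.8 kb of distal coding sequence, whereas Tchh has 4.66 kb, so that the density of Dst was well below the 1.93 and 2.58 per kb of Tchh. Shank1, a scaffold of excitatory synapses, had 7 in each library. Sptbn4 had 8 and 6, Speg, a kinase of striated muscle, had 8 and 5, and Ryr1, the calcium release channel of skeletal muscle, had 5 and 7. Mn1, a transcriptional co-regulator, had 5 and 6, all in 1 exon. The protocadherins Pcdh17 and Pcdh10, which mediate adhesion between neurons, had 5 and 6 and 6 and 4, also in 1 exon each. Prdm13, which directs fates of dorsal spinal interneurons, had 5 in each library and all 5 were shared, with scores from 56 to 121 in replicate 1 and from 15 to 106 in replicate 2. Skor2, a co-repressor, had 4 and 6, Palld, an actin-binding protein, had 5 and 6, and Col6a3, a chain of collagen VI, had 4 and 6. Srcin1, a regulator of Src kinase, had 3 and 9.

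Agrn was among the leading genes through 1 library. It encodes agrin, a matrix proteoglycan of the neuromuscular junction, and had 13 coding exon peaks in replicate 2 and 0 in replicate 1. The 13 scores ran from 4 to 17 and their median rank was 8.51. None of the 13 overlapped a hotspot of replicate 1. Among all coding exon peaks of replicate 2, only 5.66% in the lowest decile of rank and 20.4% in the next did. After the values were seen, the 18750 genes were searched for those with at least 4 coding exon peaks in 1 library and 0 in the other. This found 18 with none in replicate 1 and 10 with none in replicate 2. At the lower limit of 3 peaks, 113 genes had that many in each library. With none in replicate 1 were Muc5ac, a gel-forming mucin, with 9, Naca, a chaperone of nascent proteins, with 8, Sall3, a zinc finger gene, with 7, and Plxnb1, a semaphorin receptor, with 6. With none in replicate 2 were Apc2, an adenomatous polyposis coli homologue of neurons, and Nes, which encodes the progenitor filament nestin, with 8 each. The 8 peaks of Nes scored 21 to 33, with a median rank of 13.7, and the 8 of Apc2 scored 38 to 46, with a median rank of 51.8. None of the peaks of Nes or Apc2 overlapped a hotspot of replicate 2. Among all coding exon peaks of replicate 1, 17.1% did in decile 2, where the median rank of Nes lies. In decile 6, where that of Apc2 lies, 61.2% did. In most genes of this search no peak lay in a hotspot of the opposite library. Exceptions were Fam69b with 2 of 6, Sema5b with 2 of 4 and Slc25a18 and Arfgef3 with 1 of 4 each. Over the whole gene body, replicates 1 and 2 had 6 and 31 peaks in Agrn and 4 and 32 in Plxnb1. Muc5ac had 2 and 16 and Apc2 had 19 and 4. In these genes the difference between libraries exceeded the number of coding exon peaks. Naca had 3 and 11, Sall3 14 and 21 and Nes 13 and 5, where it did not. Of the 8 peaks of Apc2, 7 ranked above the median of distal peaks, whereas none of the 8 of Nes did. These runs were not replicated, and the part of library depth in them was not tested because the files hold no read counts.

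**Figure D4:**
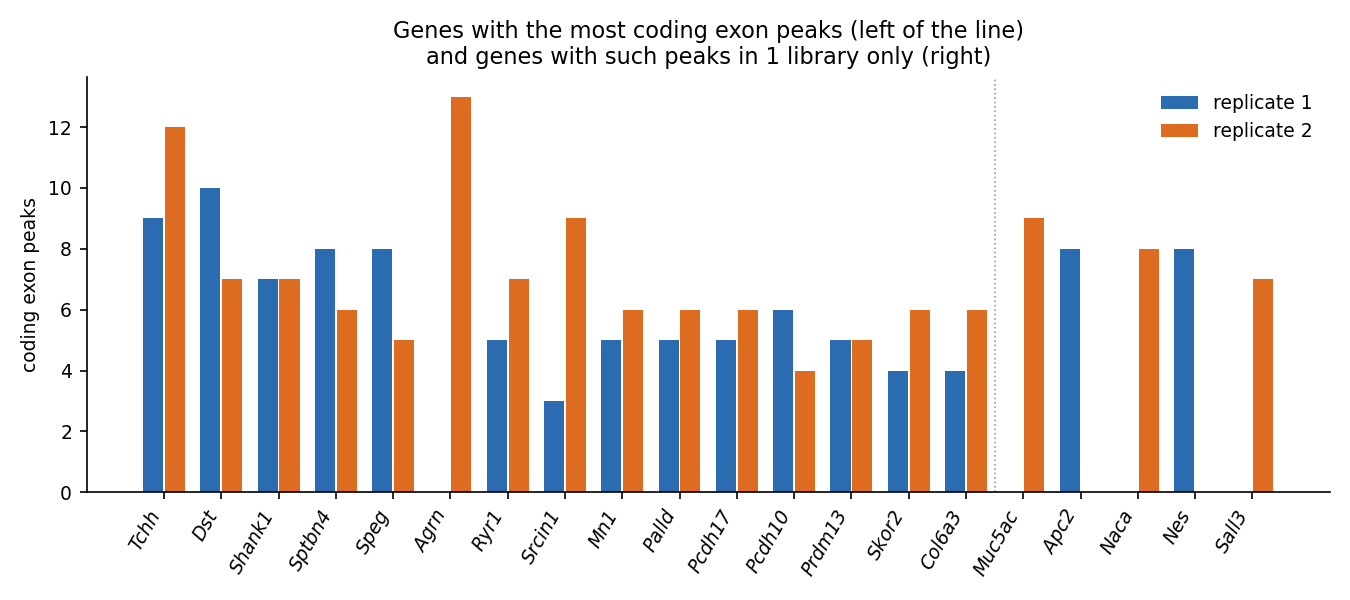
Number of coding exon peaks (y axis) in replicate 1 (blue) and replicate 2 (orange) for the 15 genes with the most by mean (left of the dotted line) and the 5 next genes with peaks in 1 library only (right). Tchh has 9 and 12, and Agrn has 0 and 13.

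Relative to length, regulators of development led among genes with at least 3 coding exon peaks in each library. Isl1, a LIM homeobox gene of motor neurons, had 5 and 4 peaks in 0.977 kb of distal coding sequence, or 5.12 and 4.09 per kb. Foxa1, a forkhead gene, had 4 and 5 peaks, all in its last exon. Insm1, a zinc finger gene of differentiating neurons, had 3 in each library in its only exon, and all 3 were shared. Zic5, a zinc finger gene of the dorsal neural tube, had 4 in each library and all 4 were shared. Tbx1, a T-box gene of the pharyngeal region, had 4 and 3, but no pair was shared. The scores of Isl1 ran from 59 to 91 in replicate 1 and from 18 to 44 in replicate 2, and those of Zic5 from 70 to 91 and from 43 to 77.

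Lists of developmental regulators had high densities as well. All protein-coding genes had 134 and 139 peaks per Mb of distal coding sequence and 9.67% had a peak in each library. Of 42 neural progenitor and patterning genes 28 had one in each, at 992 and 928 peaks per Mb, led by mean by Zic5, by Nes, whose 8 peaks were all in replicate 1, and by Foxa2 with 3 and 4. Of 39 genes of postmitotic neurons 25 had one in each, at 825 and 855 per Mb, led by Isl1, by the LIM homeobox gene Lhx5 with 5 and 2, and by the POU gene Pou4f1 with 4 and 3. The Hox genes, which set position along the body axis, had 32 and 27 peaks in 39 genes, or 2250 and 1898 per Mb, and 19 had one in each library. Of 16 Sox genes 10 had one in each, at 1237 and 1001 per Mb, and of 38 Fox genes 16 did, at 750 and 920.

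The distance from a TSS and the GC content of these genes differed from those of all genes. The Hox genes were short, with a median of 0.275 kb of distal coding sequence against 1.11 kb for all genes, whereas the other 4 lists had medians of 0.996 to 1.07 kb. Of the distal coding bases of Hox genes 87.1% were within 5 kb of a TSS, against 26.2% for all genes, and in Sox genes 51.2% lay in windows of at least 60% GC, against 13.4%. At the density of all coding sequence of the same distance and GC content the Hox genes would have had 6.03 and 6.36 peaks, which is a ratio of 5.31 and 4.25, a comparison added after the data were seen. The ratio was 3.34 and 3.21 for postmitotic neuron genes, 2.53 and 2.12 for progenitor genes, 2.11 and 1.51 for Sox genes and 1.41 and 1.49 for Fox genes. The lists were drawn up with earlier results of these data known, so their order is a description. Some genes are in more than 1 list, such as Foxa2 among progenitor and Fox genes.

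Markers of other cell types that a dissected neural tube can hold were also measured. Of 13 genes of mesoderm and connective tissue 7 had a coding exon peak in each library, at 1286 and 1607 per Mb, with Foxc1 at 3 and 3, Pax1 at 1 and 4 and Pax9 at 2 and 3, and the ratio at equal distance and GC content was 2.11 and 2.28. Of 11 genes of neural crest and peripheral glia 4 did, with 13 and 7 peaks in all. Of 9 erythroid genes 4 did (7 and 4 peaks) and of 14 endothelial genes 3 did (6 and 7 peaks, 3 in each library in Sox17). Of 10 liver genes 2 did (2 and 3 peaks) and of 10 myeloid genes 1 did (2 and 1 peaks). Of 12 genes of heart and striated muscle 4 did (8 and 12 peaks, 5 and 7 of them in Ryr1), at 51.0 and 76.5 per Mb. At equal distance and GC content the ratio was 2.45 and 1.14 for neural crest, 2.10 and 1.11 for erythroid, 1.17 and 1.25 for endothelial, 0.986 and 1.63 for liver, 1.16 and 0.562 for myeloid and 0.516 and 0.809 for muscle genes, so that in replicate 1 the neural crest and erythroid ratios were near that of progenitor genes. Which cells of the tissue carry a given peak was not measured.

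Other lists and families had lower densities than the developmental regulators, on both sides of the level of all genes. Axon guidance genes had 129 and 155 peaks per Mb, and chromatin regulators 93.5 and 127. Both were below the number at equal distance and GC content, with ratios of 0.743 and 0.873 and of 0.618 and 0.793. Extracellular matrix genes had 105 and 201 per Mb, with ratios of 0.784 and 1.38, and 13 of their 42 peaks in replicate 2 were those of Agrn. Collagen genes had 81.5 and 92.4, non-clustered cadherins 178 and 183, voltage-gated channels 164 and 187 and Zfp zinc finger genes 115 and 102. Clustered protocadherins had 6 and 18 peaks in 57 genes, with ratios of 0.272 and 0.803. In 277 olfactory receptor genes there were 3 peaks in each library, or 26.7 per Mb. At equal distance and GC content they would have had 7.47 and 5.42, which gives ratios of 0.402 and 0.554. Keratin genes, of which 15 of 62 had a peak in each library, stood at 411 and 321 per Mb with ratios of 2.30 and 1.66, led by Krt77 with 2 in each.

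**Figure D5:**
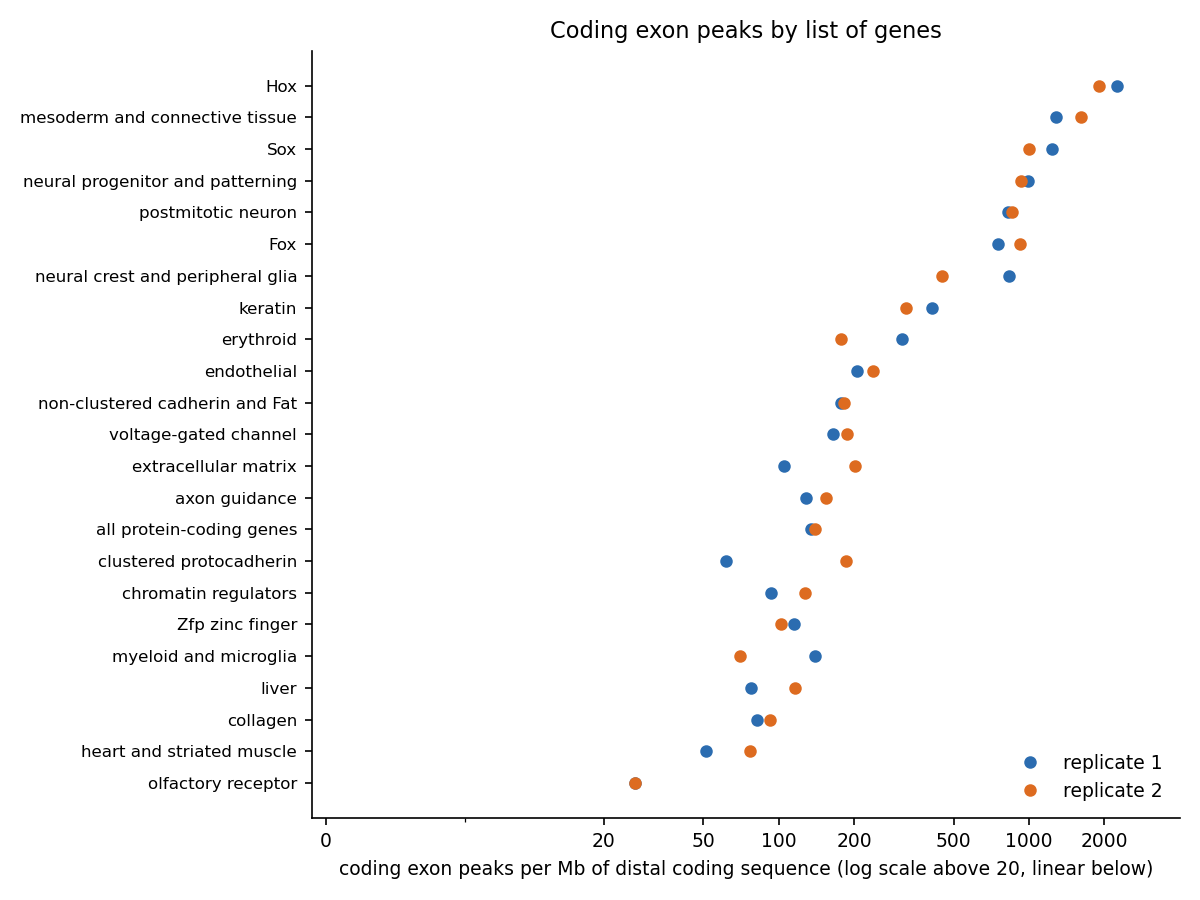
Coding exon peaks per Mb of distal coding sequence (x axis, log scale above 20 and linear below) for each list of genes (y axis, ordered by the mean of both libraries), in replicate 1 (blue) and replicate 2 (orange). Hox genes stand at 2250 and 1898, all protein-coding genes at 134 and 139, and olfactory receptors at 26.7 in both.

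Consensus motifs were searched on both strands in each window, and a match describes letters and not a bound factor. The motif of CTCF, an insulator protein, was found in 3.07% and 3.01% of coding exon peaks and in 0.0545% of the 154183 coding windows without a peak. Intron peaks held it in 3.91% and 4.48%. Among coding exon peaks found in both libraries the share was 4.64% and 4.66%, and among those found in 1 it was 0.662% and 0.449%. The GC box of Sp and Klf factors (GGGCGG) was in 13.4% and 14.2% of coding exon peaks, 5.97% and 7.83% of intron peaks and 3.26% of coding windows without a peak. The motif of NRF1, a factor of CpG-rich promoters, was in 1.31% and 1.29%, against 0.150% and 0.214% of intron peaks and 0.0675% of windows.

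The homeodomain and POU motifs, both rich in A and T, showed the other order. The homeodomain core TAATTA was in 0.734% and 0.429% of coding exon peaks, 3.87% and 2.58% of intron peaks and 1.82% of coding windows without a peak. The POU octamer (ATTTGCAT) was in 0.341% and 0.202%, against 1.18% and 0.899% of intron peaks. The E-box CAGCTG of bHLH factors was in 20.3% of members in both libraries, 16.3% and 17.7% of intron peaks and 12.3% of windows. The E-box CAGATG of proneural bHLH factors was less frequent in coding exon peaks than in intron peaks, with 14.2% and 14.4% against 17.7% and 17.4%, and was in 14.5% of windows. Of the 17 motifs searched these are the ones described, and shares were not adjusted for base composition.

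Members that overlapped no peak and no hotspot of the opposite library numbered 1284 and 1121, or 33.7% and 28.3% of the members. Among all distal peaks the shares were 48.7% and 24.7%, so that members were below the background in replicate 1 and above it in replicate 2. The best ranked of replicate 1 lay in the last exon of Hoxb4, with a score of 103 and a rank of 95.8. It was followed by last exons of the homeobox genes Six3, with a score of 87, and Lhx1, with 84, of Trip4, a transcriptional coactivator gene, with 85, and of Hoxb5, with 83. Thus the 5 best ranked of replicate 1 were all in last exons. In replicate 2 the best ranked were in Nid2, which encodes the basement membrane protein nidogen 2, with a score of 48 and a rank of 84.7, and then in the dorsal midline signal Wnt1, the forkhead gene Foxp4, the caudal homeobox gene Cdx2 and the convertase gene Pcsk4, with scores from 35 to 37. The Foxp4 and Pcsk4 peaks were 61 bp and 4 bp from a start site of any gene type, and the Hoxb5 peak was 10 bp from one.

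Coding exons of Adamts5, Hoxa2 and Dync1i1 have been described as enhancers, and their peaks were therefore read off one by one. Adamts5, which encodes a protease that cleaves matrix proteoglycans, had 3 coding exon peaks in each library, and all 3 were shared. The peak of exon 2 of 8 lay 13937 bp from the TSS and scored 113 in replicate 1 (rank 97.9) and 46 in replicate 2 (rank 83.4). The other 2 lay in exon 1, with scores of 79 and 56 and of 64 and 47. Their sequences are given as above.
Adamts5 exon 2 of 8 at chr16:85887816-85887965 (-): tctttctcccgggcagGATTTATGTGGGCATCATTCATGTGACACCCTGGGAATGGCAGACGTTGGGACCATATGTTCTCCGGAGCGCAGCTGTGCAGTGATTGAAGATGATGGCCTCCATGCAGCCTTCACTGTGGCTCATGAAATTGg
Adamts5 exon 1 of 8 at chr16:85900036-85900185 (-): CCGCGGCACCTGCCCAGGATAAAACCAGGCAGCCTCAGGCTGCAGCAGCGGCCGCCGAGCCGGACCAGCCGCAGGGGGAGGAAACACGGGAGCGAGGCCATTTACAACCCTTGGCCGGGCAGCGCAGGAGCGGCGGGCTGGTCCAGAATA
Adamts5 exon 1 of 8 at chr16:85899416-85899565 (-): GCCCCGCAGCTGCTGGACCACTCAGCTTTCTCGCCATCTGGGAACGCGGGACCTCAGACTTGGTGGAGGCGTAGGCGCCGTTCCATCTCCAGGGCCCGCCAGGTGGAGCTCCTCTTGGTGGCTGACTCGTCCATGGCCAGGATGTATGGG
The exon 2 window had a GC content of 52.7% and 4 CpG dinucleotides, whereas those of exon 1 had 69.3% and 65.3% and 13 and 9 CpG dinucleotides. In GC content the exon 2 window was thus unlike the best ranked members shown before it.

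Hoxa2, a Hox gene of the hindbrain, had a coding exon peak in its last exon in replicate 1 only, at chr6:52162976-52163125, with a score of 94 and a rank of 92.7. No peak of replicate 2 overlapped it, but it lay in a hotspot of that library. Its own hotspot was 8070 bp wide and reached a coding TSS, and a start of any gene type lay 926 bp away. Exon 1 of Hoxa2 held a peak in each library, with scores of 121 and 98. These lay 340 bp and 400 bp from a coding TSS and so are not members. Dync1i1, which encodes an intermediate chain of cytoplasmic dynein, had no coding exon peak in either library. Its only peaks centred in coding sequence were 28 bp and 12 bp from a coding TSS, in exon 2, with scores of 50 and 22.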

How the data were processed

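DNase-seq peaks and hotspots were deposited by the authors for each of 2 libraries, called separately and not pooled, on mm10 per the file headers and labels. The aligner, the peak caller and any threshold were not given in the sources used here. Each peak is a window of 150 bp with a whole-number score deposited by the authors, which was used only to rank peaks within a library. Hotspots carry a −log10 q-value deposited by the authors, and only their positions were used. No read counts are in these files, so the depth is unknown. Repeated rows on chromosomes 1 to 19, 44 in replicate 1 and 21 in replicate 2, were removed.

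Peaks were annotated with GENCODE vM21 on the GRCm38.p6 sequence, the same assembly, and every region ended within its chromosome. A TSS is the start of a protein-coding transcript of a protein-coding gene, 52063 in all. A centre was assigned in the order coding sequence, other exon of a coding gene, exon of a noncoding gene, intron, intergenic. The transcript chosen per gene was the APPRIS principal one, then an alternative, CCDS or basic one, then that with the longest coding sequence. Overlap required 1 bp. Densities divide peaks by the known bases of a class over 1 kb from a TSS. Intervals are exact (Clopper-Pearson) at 95%. Annotation and overlap code was tested on simulated data. Python 3.11.15, numpy 2.4.6, pandas 2.3.3 and scipy 1.17.1 were used.

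The members, the 22 lists and the 17 motifs were chosen with earlier results of these data known. Genes named are the 15 with the most coding exon peaks by mean, the 5 leading per kb with at least 3 in each library, up to 3 per list, the 10 peaks found in both libraries with the best mean rank, the 5 best ranked of each library that overlapped no peak or hotspot of its counterpart, and Adamts5, Hoxa2 and Dync1i1. Sequences from chromosome 18 or touching a UTR are not shown. No test across samples was run. Alternatives changed the TSS distance, the transcripts, the assignment of a peak, the overlap, the part of each list used, the definition of a last exon and the densities set beside coding sequence, and left out each library.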

Additional observations from a re-analysis of the deposited data

How the results depend on the processing

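Values are means over both libraries. The ratio of coding to intron density, 2.11, reversed to 0.758 at equal GC content and to 0.692 at equal distance and GC content, and was over 1 under the other alternatives run; the last-exon ratio, 1.94, was 1.38 at equal GC content, 1.84 at equal distance and 1.35 at both. Intron peaks of the same rank deciles gave 63.1% found, against 60.5% for coding exons. This mean joins opposite signs, with 57.3% against 60.4% in replicate 1 and 68.9% against 60.6% in replicate 2. These 7 comparisons were chosen after seeing the data. The share of peaks in coding exons (2.30%), the share found (60.5%), the share in last exons (29.9%) and the last-exon ratio became 2.87%, 61.9%, 26.2% and 1.89 with a limit of 500 bp, 1.80%, 59.4%, 30.7% and 1.86 with 2 kb, and 1.82%, 59.8%, 33.3% and 2.01 over 1 kb from starts of any gene type. In the higher-scoring 50% of each list there were 2060 members, 78.2% found, 35.5% in last exons, a last-exon ratio of 2.75 and 245 genes with at least 2 in each library, against 387. With equal numbers of peaks 64.0% were found, 30.6% were in last exons and the ratio was 2.02. With 1 transcript per gene these shares were 60.7% and 29.5%, and with 75 bp of the peak in coding sequence 30.1% were in last exons. An overlap of 75 bp gave 50.6% found, and hotspots gave 68.7%. Last exons of any transcript gave 33.6% and 1.62, and last coding exons 35.3% and 2.00. Leaving out a library left 725 to 775 genes with at least 2 in the remaining one. Of 90 alternatives 53 stayed within the SD between libraries or within 1.5 times a count. When a library was left out, a value other than a count was bound to stay within that SD, which the same 2 libraries set. Those alternatives are among the 53 and say nothing about stability. For the last-exon ratio and the shares found and in last exons that SD was small. The cause of the other changes was not tested. No paired analysis was possible because the 2 libraries form 1 group. Depth is unknown, so weak sites cannot be separated from sites missed.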
